A study of Homo sapiens with 6 samples.

Results

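The genes described here encode the kinetochore, the centromere, the chromosome passenger complex and the regulators of the anaphase-promoting complex. They were taken by symbol: a listed gene is a member when a row of the deposited table carries its name, and of several rows with 1 name the one with the largest mean was taken. All 49 listed symbols were found among 60569 gene names, and all 49 passed the filter on low values (FPKM no lower than 1 in 3 libraries), as did 13185 genes in all. RNA was sequenced from MDA-MB-453 cells, a human line from a breast cancer, as 3 libraries of cells carrying control vector and 3 of cells carrying a ZNF207-overexpression construct. The series describes the 3 libraries of each group as independent biological replicates. The promoter of the construct, the time after transfection and the share of cells that took up the construct were not stated in the labels used. Values are FPKM, that is, fragments relative to transcript length and to the mapped total of the library, so that levels of different genes can be set side by side.

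A kinetochore is the protein assembly that ties a centromere to spindle microtubules in mitosis. Nucleosomes with the histone variant CENPA mark the centromere, the constitutive centromere-associated network (CCAN) sits on them through the cell cycle, and the KMN network (KNL1, the MIS12 complex and the NDC80 complex) is built onto it and grips microtubules. The checkpoint holds back anaphase until every kinetochore is attached, by keeping CDC20 from activating the anaphase-promoting complex (APC/C). ZNF207 (BuGZ) has zinc fingers, binds BUB3 and microtubules, and helps load BUB3 onto kinetochores.

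ZNF207 was measured first as a check of the labels. The control libraries held 69.2, 67.0 and 63.7 FPKM and the ZNF207 libraries 885, 786 and 750 FPKM. All 3 ZNF207 libraries lay far above the controls, with a log2 change of 3.58 (SE 0.07, limma). The exact two-sided permutation test gave p = 0.1, the smallest that 3 against 3 libraries allow. Across the 6 libraries FPKM summed to between 589550 and 612875, and 13061 to 13231 genes reached an FPKM of 1. Of the luminal apocrine markers of the line, 9 of 10 passed the filter, and TFAP2B did not. Their summed level, most of it from the keratins KRT8, KRT18 and KRT19, was 6836 to 7204 FPKM in controls and 6488 to 6562 FPKM in ZNF207 libraries, while 5 of the 9 had estimates above 0 and their median log2 change was 0.05. Summed markers of other cell types stayed low in controls and ZNF207 libraries: 9.55 to 11.3 and 7.40 to 9.40 FPKM for basal cells, 9.49 to 11.7 and 8.17 to 10.4 FPKM for fibroblasts, 1.16 to 1.67 and 0.962 to 2.03 FPKM for immune cells, and 0.125 to 0.480 and 0.226 to 0.577 FPKM for endothelial cells. No marker was at 0 in every library.

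The comparison asked how transcripts of the chromosome segregation machinery stood when ZNF207 was overexpressed. None of the 49 members passed the test (limma, adjusted p under 0.05), against 0.212% of the 13185 genes tested, which is 28 genes: 7 higher (0.0531%) and 21 lower (0.159%). With no adjustment, and a p under 0.05, 4 members were lower (CENPU, CENPW, NUF2 and MAD1L1) and 0 were higher, where 12.1% of all tested genes passed, 7.03% lower and 5.08% higher. The members' log2 changes ran from -0.35 for MAD1L1 to 0.29 for CENPP, with a median of -0.04, beside a median of -0.01 over all tested genes. Estimates were below 0 for 30 members, a share of 61.2% beside 52.4% of all tested genes. The count depended on scaling: it was 26 under TPM, 28 under median-of-ratios scaling and 27 under quantile normalization. The members' medians were then -0.02, -0.03 and -0.04, beside 0.010, 0.001 and 0.003 over all tested genes.

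These data bound the differences rather than show that there are none. The 95% interval of the log2 change lay within 0.5 of 0 for 42 of 49 members, or 85.7%, against 80.7% of all tested genes. It lay within 1 of 0 for all 49. For 37 members the group means differed by less than 10 percent. All 49 members together made up 0.219%, 0.224% and 0.219% of the FPKM of the control libraries and 0.224%, 0.221% and 0.210% of the ZNF207 libraries. In bulk RNA, fewer cells of a type and less RNA per cell cannot be told apart, and this holds for a change in the share of cells in mitosis too.

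**Figure D1:**
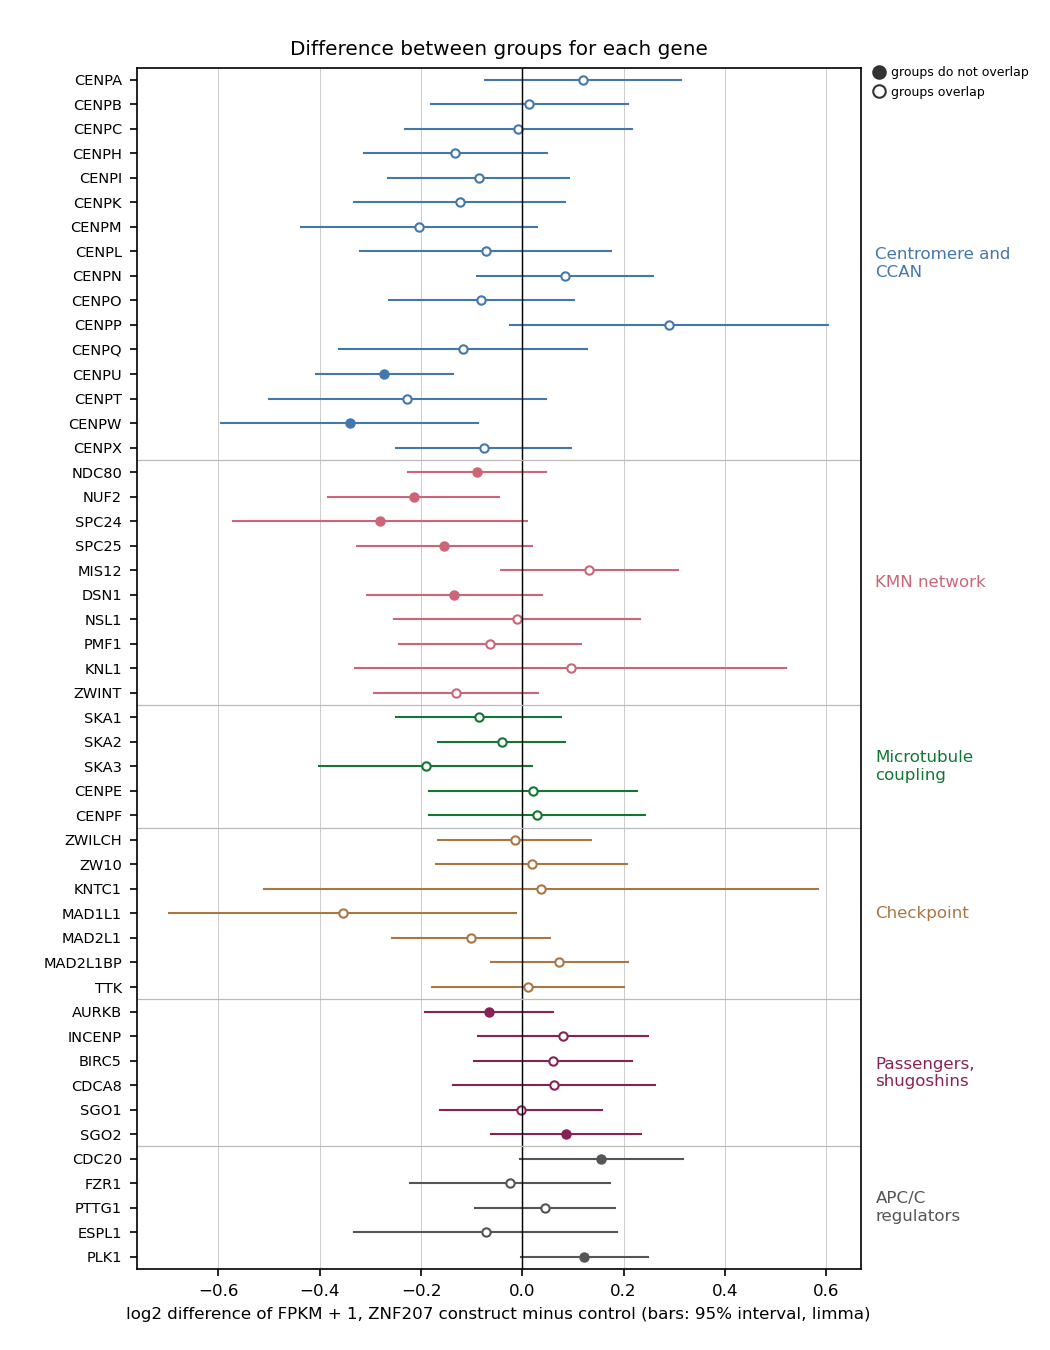
The log2 difference of FPKM + 1 between ZNF207 and control libraries is plotted for each of the 49 genes, by functional group, with its 95% interval from limma; filled points are genes whose 3 control and 3 ZNF207 libraries did not overlap. Estimates run from -0.35 to 0.29, and most filled points below 0 belong to the KMN network.

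In 11 members the 3 libraries of one group lay wholly apart from those of the other, a share of 22.4% beside 18.0% of all tested genes. There were 8 lower members (16.3%, against 10.4% of all tested genes), namely CENPU, CENPW, NDC80, NUF2, SPC24, SPC25, DSN1 and AURKB. The 3 higher members (6.12%, against 7.61%) were SGO2, CDC20 and PLK1. Of the lower members, 5 belong to the KMN network and 2 to the centromere and CCAN group. None of the 11 passed the adjusted test. With the values rescaled to TPM, SPC24, SPC25, DSN1 and PLK1 were no longer apart. PLK1 was not apart under median-of-ratios scaling or quantile normalization either, nor was CENPW under quantile normalization. Other members became apart: MIS12 as higher under all of these scalings, and MAD2L1BP as higher under TPM. Under quantile normalization BIRC5 was apart as higher and SKA1 as lower.

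**Figure D2:**
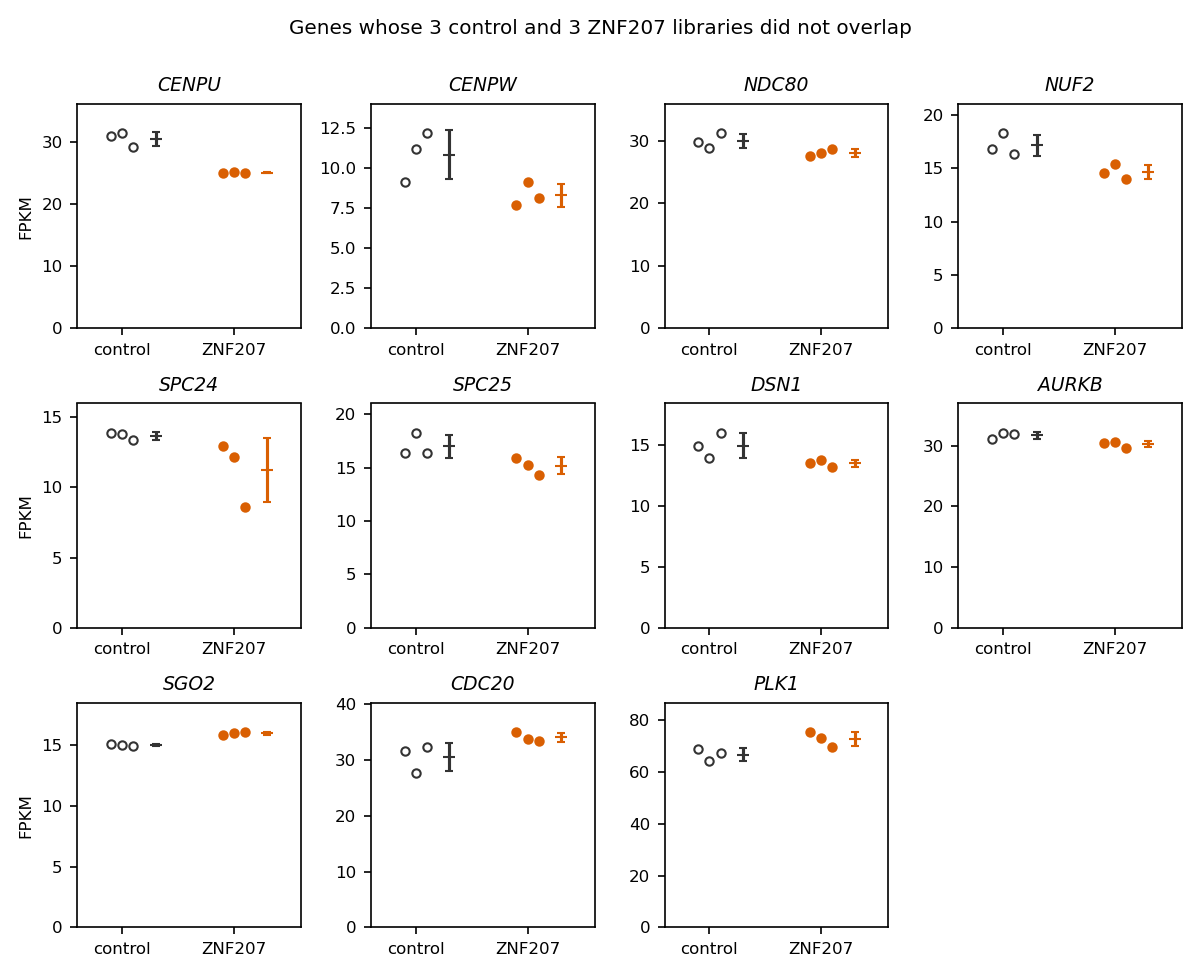
FPKM of the 11 genes whose groups did not overlap, with each library as a point and the mean with its SD (n = 3) beside it, on axes that start at 0. The gaps between groups are small next to the levels, and a single library of SPC24, at 8.62 FPKM, stands below the other 5.

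At the base of the kinetochore, CENPA, the centromeric histone H3 variant, was at 15.3, 16.1 and 17.8 FPKM in controls and 16.3, 18.1 and 19.4 FPKM in ZNF207 libraries. These ranges overlapped, and its log2 change was 0.12 (95% interval -0.07 to 0.31, limma adjusted p = 0.63). CENPC, which links CENPA nucleosomes to the outer kinetochore, was at 6.89, 7.34 and 8.21 FPKM in controls and 7.63, 6.78 and 7.86 FPKM in ZNF207 libraries. Its log2 change was -0.01 (95% interval -0.23 to 0.22), and the sign turned under other scalings. CENPB, which binds a DNA box in alpha satellite repeats, was at 73.6, 82.9 and 85.4 FPKM in controls and 71.5, 86.7 and 86.4 FPKM in ZNF207 libraries.

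Among the CCAN subunits, CENPU gave the smallest p of all 49 members. It is a subunit of the CENP-O group and helps recruit PLK1 to kinetochores. CENPU was measured at 30.8, 31.3 and 29.1 FPKM in controls and at 25.0, 25.1 and 24.9 FPKM in ZNF207 libraries, so that every ZNF207 library was lower than every control. The means were 30.4 ± 1.19 and 25.0 ± 0.094 FPKM (SD, n = 3 each), with a log2 change of -0.27 (SE 0.06, 95% interval -0.41 to -0.14, limma adjusted p = 0.108). The other members of that group had estimates of both signs: CENPO, CENPP and CENPQ had log2 changes of -0.08, 0.29 and -0.12. CENPP, the least abundant of all members, was at 3.17, 3.87 and 4.27 FPKM in controls and 4.90, 5.61 and 4.01 FPKM in ZNF207 libraries, with overlap and an interval of -0.03 to 0.60 (adjusted p = 0.451).

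CENPW, a histone-fold protein that pairs with CENPT, was at 9.18, 11.2 and 12.2 FPKM in controls and 7.71, 9.13 and 8.13 FPKM in ZNF207 libraries. The groups were set apart by a narrow gap, between 9.18 and 9.13 FPKM. Its log2 change was -0.34 (SE 0.11, 95% interval -0.59 to -0.09, limma adjusted p = 0.267). CENPT and CENPX, the other tested histone-fold subunits of the set, had log2 changes of -0.23 and -0.08 with overlapping groups. CENPX, the most abundant of the 49 genes, was at 118, 145 and 129 FPKM in controls and 117, 130 and 124 FPKM in ZNF207 libraries. For the partner subunits CENPH, CENPI, CENPK and CENPM all 4 estimates were below 0, at -0.13, -0.09, -0.12 and -0.20, and no groups were apart. CENPN, which reads CENPA nucleosomes, and its partner CENPL had log2 changes of 0.08 and -0.07. Of the 16 centromere and CCAN genes, 12 estimates were below 0 and 4 above, with a median of -0.08.

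Most KMN network estimates lay below 0. Of its 10 genes, 8 estimates were below 0, the median was -0.11, and 5 members had ZNF207 libraries wholly below the controls, where 52.4% of all tested genes had estimates below 0 and 10.4% were wholly below. The NDC80 complex is the rod that binds microtubules, made of NDC80, NUF2, SPC24 and SPC25. All 4 of its genes stood lower in every ZNF207 library than in any control, with a median log2 change of -0.18. When the values were rescaled to TPM the separation held for 2 of the 4, NDC80 and NUF2.

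NDC80, which carries the microtubule-binding head, was at 29.9, 28.9 and 31.2 FPKM in controls and 27.5, 28.1 and 28.8 FPKM in ZNF207 libraries (log2 change -0.09, 95% interval -0.23 to 0.05, limma adjusted p = 0.602). Its partner NUF2 was at 16.8, 18.3 and 16.4 FPKM in controls and 14.5, 15.4 and 14.0 FPKM in ZNF207 libraries (log2 change -0.21, SE 0.08, 95% interval -0.38 to -0.05, adjusted p = 0.294). These 2 genes differ in size of estimate, but their intervals overlap. SPC24, at the end of the rod that faces the centromere, was at 13.9, 13.8 and 13.3 FPKM in controls and 12.9, 12.2 and 8.62 FPKM in ZNF207 libraries. ZNF207 replicate 3 set its estimate: the log2 change of -0.28 (adjusted p = 0.427) was -0.12 without that library (adjusted p = 0.734). SPC25, the partner of SPC24, was at 16.4, 18.3 and 16.3 FPKM in controls and 15.9, 15.3 and 14.4 FPKM in ZNF207 libraries (log2 change -0.15, adjusted p = 0.468).

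The MIS12 complex, the platform that joins the NDC80 complex to the centromere, had estimates of both signs. DSN1 had ZNF207 libraries (13.5, 13.7 and 13.2 FPKM) below the controls (14.9, 13.9 and 16.0 FPKM), while MIS12 had a log2 change of 0.13 with overlap. NSL1 and PMF1 had log2 changes of -0.01 and -0.06. KNL1, the scaffold onto which BUB1 and BUB3 dock, was at 13.3, 7.59 and 7.52 FPKM in controls and 10.5, 10.8 and 8.44 FPKM in ZNF207 libraries. Control replicate 1 stood apart from its group, and the log2 change of 0.10 was 0.34 without it (adjusted p = 0.311). ZWINT, which binds KNL1, had a log2 change of -0.13.

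**Figure D3:**
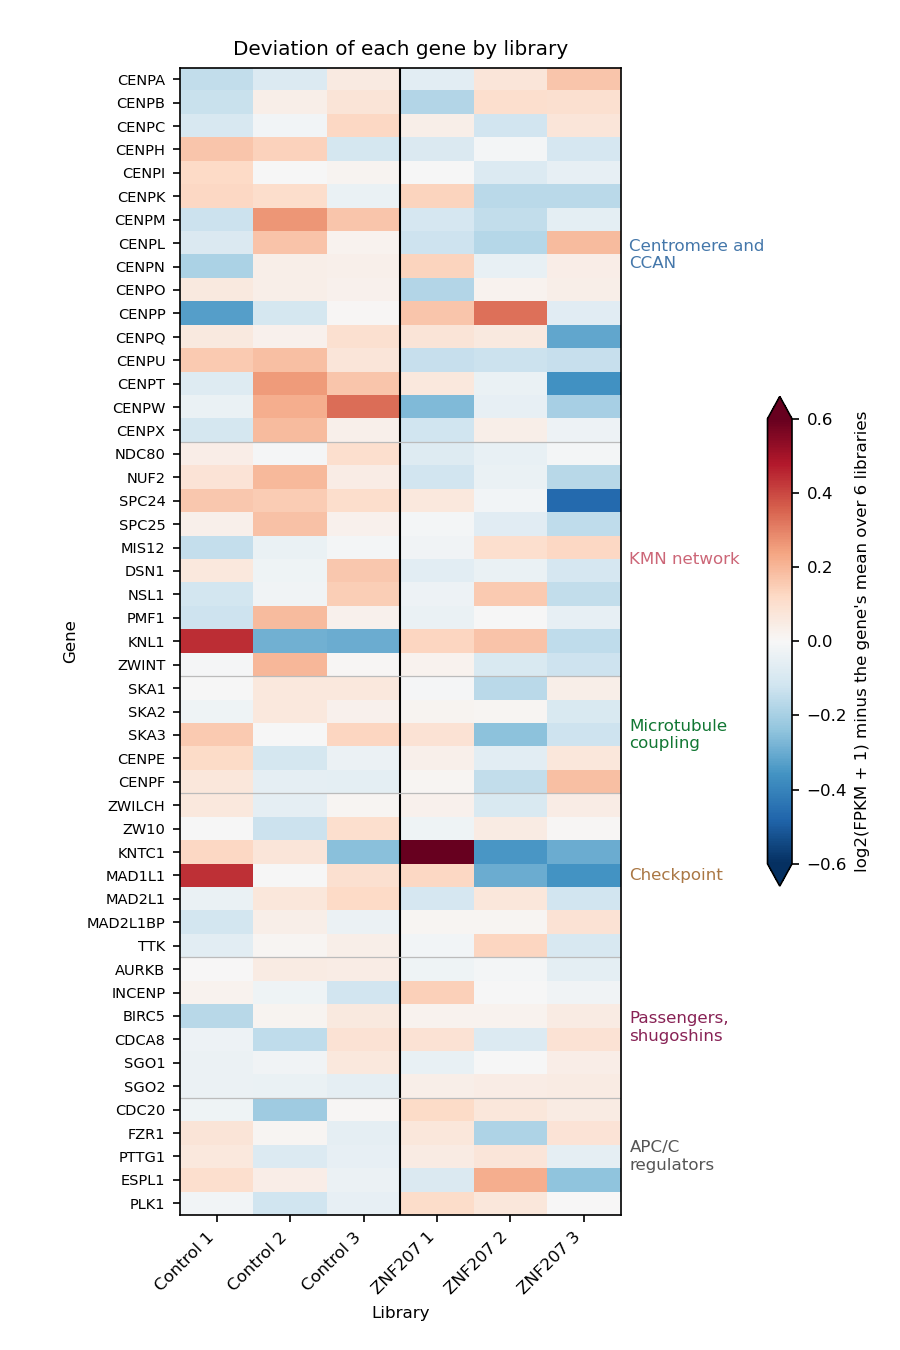
Each cell is the log2(FPKM + 1) of a gene in a library minus that gene's mean over the 6 libraries, with the genes in functional order and the control and ZNF207 libraries parted by a line. The 3 control and 3 ZNF207 libraries of the NDC80 complex sit on opposite sides of 0 for most values, while KNL1 and MAD1L1 in control replicate 1 and KNTC1 in ZNF207 replicate 1 stand out as single libraries.

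Microtubule coupling factors had estimates of both signs and no groups apart. SKA1, SKA2 and SKA3 form a complex that tracks microtubule ends, and their log2 changes were -0.09, -0.04 and -0.19, all below 0. SKA1 was at 22.5, 23.7 and 23.6 FPKM in controls and 22.5, 20.1 and 23.2 FPKM in ZNF207 libraries, which overlapped. SKA3 was at 20.9, 18.7 and 20.5 FPKM in controls and 19.9, 15.6 and 17.0 FPKM in ZNF207 libraries, which overlapped (adjusted p = 0.459). Its log2 change was -0.12 without ZNF207 replicate 2. The kinesin CENPE, at 9.97, 8.42 and 8.89 FPKM in controls and 9.34, 8.70 and 9.63 FPKM in ZNF207 libraries, and the large coiled-coil protein CENPF had log2 changes of 0.02 and 0.03.

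Checkpoint genes were spread on both sides of 0, with a median of 0.01 over 7 genes and no groups apart. MAD1L1, which carries MAD2L1 to unattached kinetochores, was at 13.2, 9.45 and 10.2 FPKM in controls and 10.4, 7.52 and 7.15 FPKM in ZNF207 libraries. Its log2 change of -0.35 (SE 0.15, 95% interval -0.70 to -0.01, limma adjusted p = 0.394) was the lowest of all members, but the groups overlapped. Without control replicate 1 it was -0.22 (adjusted p = 0.597), closer to 0 than that of CENPW (-0.45). Over the 16 alternatives the log2 change of MAD1L1 ran from -0.51 to -0.22, with limma adjusted p from 0.0987 to 0.682. MAD2L1, the checkpoint effector, was at 53.0, 57.1 and 59.3 FPKM in controls and 50.7, 57.1 and 50.2 FPKM in ZNF207 libraries (log2 change -0.10, 95% interval -0.26 to 0.06). MAD2L1BP, which helps switch the checkpoint off, had a log2 change of 0.07.

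TTK, the kinase that starts the checkpoint signal, was at 11.7, 12.4 and 12.6 FPKM in controls and 12.1, 13.5 and 11.4 FPKM in ZNF207 libraries. The log2 change was 0.01 with an interval of -0.18 to 0.20. KNTC1, ZW10 and ZWILCH form the complex that brings dynein to kinetochores. KNTC1 was at 23.7, 22.9 and 18.1 FPKM in controls and 36.0, 16.8 and 17.5 FPKM in ZNF207 libraries. Its log2 change of 0.04 was -0.31 without ZNF207 replicate 1 (adjusted p = 0.369), and the sign turned in 3 of 16 alternatives. ZW10 and ZWILCH had log2 changes of 0.02 and -0.02.

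The partners of ZNF207 in the same checkpoint arm stood close to their control levels. BUB3, to which ZNF207 binds, was at 107 ± 3.34 FPKM in controls and 108 ± 5.31 FPKM in ZNF207 libraries (SD, n = 3 each), with a log2 change of 0.01 (limma adjusted p = 0.951). BUB1 and BUB1B, the kinase and pseudokinase that work with BUB3, had log2 changes of 0.01 and -0.05. None of these 3 genes passed the test, and their groups overlapped.

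The chromosome passenger complex corrects wrong microtubule attachments through the kinase AURKB, with INCENP, BIRC5 and CDCA8. AURKB was at 31.0, 32.1 and 31.9 FPKM in controls and 30.4, 30.6 and 29.7 FPKM in ZNF207 libraries. These groups were apart, yet the log2 change was only -0.07 (95% interval -0.19 to 0.06, adjusted p = 0.692). BIRC5, the survivin subunit, was at 34.0, 38.7 and 39.9 FPKM in controls and 38.8, 38.9 and 39.6 FPKM in ZNF207 libraries (log2 change 0.06, adjusted p = 0.777). INCENP and CDCA8 had log2 changes of 0.08 and 0.06. Shugoshins guard centromeric cohesion. SGO2 was at 15.1, 15.0 and 14.9 FPKM in controls and 15.9, 16.0 and 16.1 FPKM in ZNF207 libraries, a separation with a very small spread and a log2 change of 0.09 (95% interval -0.06 to 0.23, adjusted p = 0.65). SGO1 was at 14.4, 14.6 and 15.5 FPKM in controls and 14.3, 14.8 and 15.3 FPKM in ZNF207 libraries.

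Regulators of the APC/C and of sister separation held 2 of the 3 higher members, CDC20 and PLK1. Among all tested genes 7.61% were apart as higher. Under TPM, median-of-ratios scaling and quantile normalization PLK1 was no longer apart. CDC20, the activator of the APC/C that the checkpoint inhibits, was at 31.6, 27.6 and 32.4 FPKM in controls and 35.0, 33.8 and 33.3 FPKM in ZNF207 libraries (log2 change 0.16, SE 0.07, 95% interval -0.01 to 0.32, limma adjusted p = 0.427). Without control replicate 2, the lowest control, its log2 change was 0.09 (adjusted p = 0.798). PLK1, a mitotic kinase active at kinetochores, was at 68.9, 64.1 and 67.1 FPKM in controls and 75.3, 73.1 and 69.7 FPKM in ZNF207 libraries (log2 change 0.12, 95% interval -0.00 to 0.25, adjusted p = 0.422). The gaps of both genes were narrow next to the spread within groups. PTTG1, the securin degraded at anaphase, was at 64.2, 58.0 and 59.4 FPKM in controls and 63.6, 64.7 and 59.2 FPKM in ZNF207 libraries (log2 change 0.05, adjusted p = 0.819). ESPL1, the separase that securin holds, and FZR1, the later activator of the APC/C, had log2 changes of -0.07 and -0.02.

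Levels differed far more between genes than between groups. The mean over 6 libraries ran from 4.31 FPKM for CENPP to 127 FPKM for CENPX, and 33 of 49 genes lay between 10 and 40 FPKM. CENPX was followed by CENPB (81.1 FPKM), PLK1 (69.7 FPKM), SKA2 (67.8 FPKM), PTTG1 (61.5 FPKM) and MAD2L1 (54.6 FPKM). Of the 48 neighbouring pairs in this order, 3 did not overlap over the 6 libraries: CENPX above CENPB, MAD2L1BP above BIRC5, and CENPC above CENPP.

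Subunits of a complex were not present at equal transcript levels, and this was so in both groups. In the NDC80 complex the highest gene, NDC80, was 2.19 times SPC24 in controls and 2.50 times in ZNF207 libraries. CENPX was 12.0 times CENPW in controls and 14.8 times in ZNF207 libraries. In the passenger complex BIRC5 was 2.72 times CDCA8 in controls and 2.70 times in ZNF207 libraries, and SGO2 and SGO1 were nearly level, at 1.01 and 1.08 times.

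**Figure D4:**
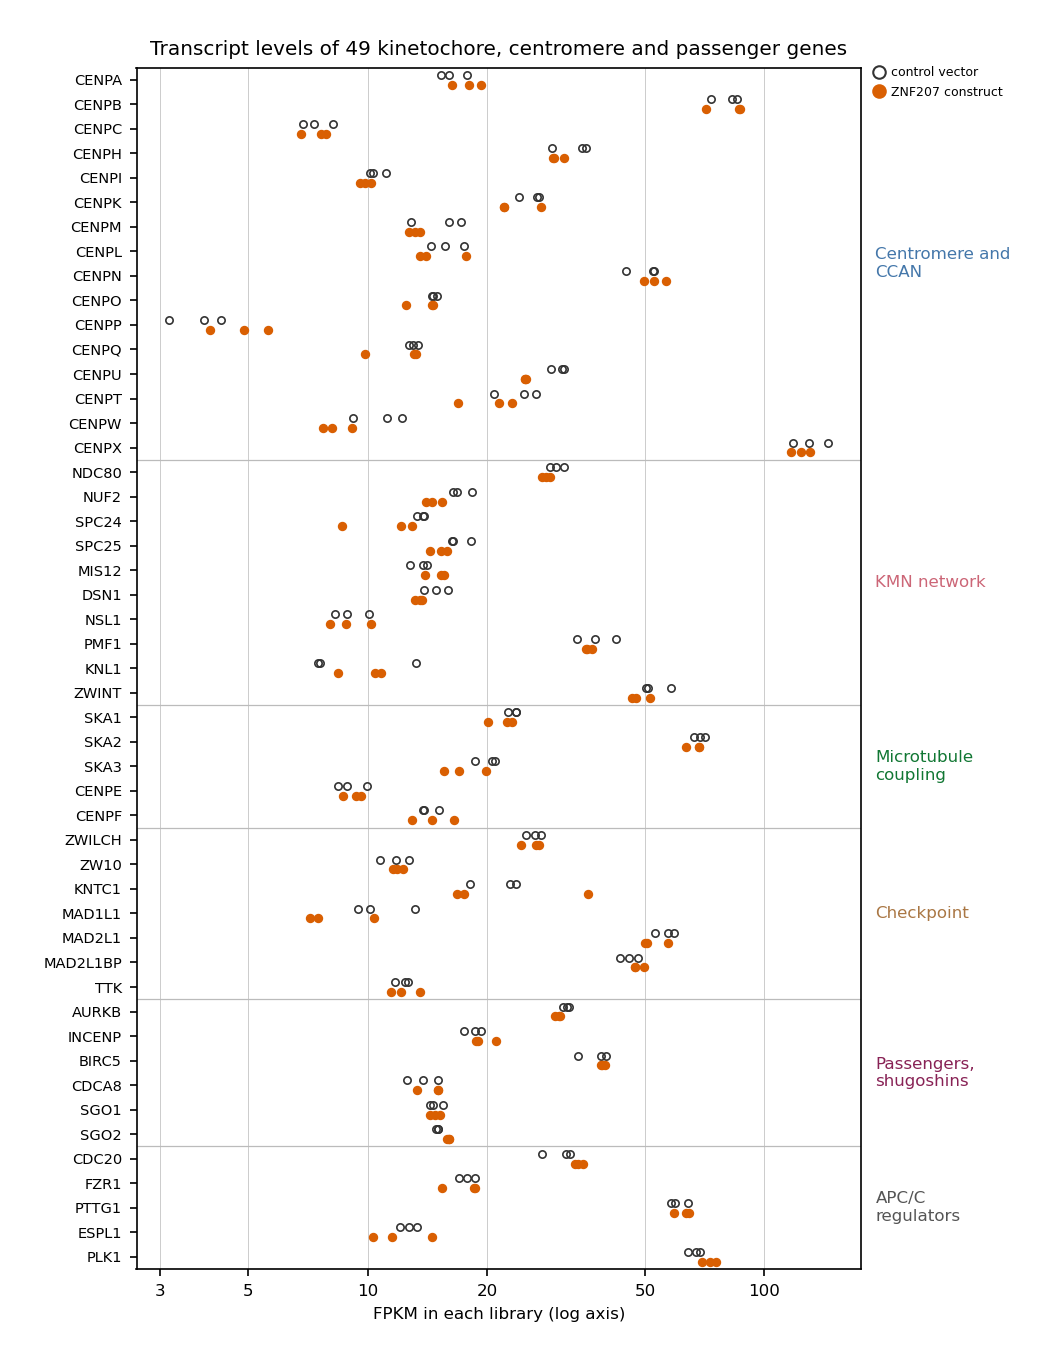
FPKM of the 49 genes in each library on a log axis, by functional group, with open points for control and filled points for ZNF207 libraries. Within a gene the 6 points mostly lie close together, while genes range from a mean of 4.31 to 127 FPKM.

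The spread between replicates was small for most members, with a median coefficient of variation of 6.31% over the 98 gene and group pairs. It passed 20% in 4 of them: KNL1 in controls (34.9%), and KNTC1 (46.5%), MAD1L1 (21.4%) and SPC24 (20.4%) in ZNF207 libraries. ZNF207 replicate 3 held the lowest value of 16 of 49 members, where each of the other libraries held 4 to 10. The same count over all tested genes is not given, so this cannot be read as a trait of the members. Without ZNF207 replicate 3 the median log2 change was -0.05 for the 49 members and -0.12 for the NDC80 complex. With it they were -0.04 and -0.18.

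Promoters of many of these genes carry the cell cycle genes homology region, a short element bound by complexes that switch mitotic genes on late in the cell cycle, and CCAAT boxes bound by NF-Y. RefSeq promoters on GRCh38.p14, 250 bases before to 50 after a gene's start, were found for 42 of 49 members. The letters TTTGAA or TTCGAA, on either strand, occurred in 21 of 42 (50%), against 16.4% of 35116 promoters of the same length. Within 100 bases before to 50 after the start they occurred in 19 members (45.2%), against 7.37%. CCAAT, on either strand, occurred in 27 members (64.3%), against 34.6%, and both motifs in 15 (35.7%), against 6.38%. A match of letters is a description and not a bound site.

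Sites are printed for 3 subunits of the NDC80 complex, for CENPW, CDC20 and PLK1, whose groups were also apart, and for CENPA, SKA3 and MAD2L1, whose groups overlapped. Each is 30 bases, written so that the motif, in capitals, reads TTTGAA or TTCGAA. The NDC80 stretch holds both, side by side. The sites were placed by the RefSeq start, and all but those of CDC20 and CENPW lie inside the GENCODE span of the gene. In NUF2, CENPW and MAD2L1 the motif begins after the RefSeq start, at base 17, 18 and 25.
PLK1 (chr16:23678848-23678877): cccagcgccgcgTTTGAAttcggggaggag
CDC20 (chr1:43358904-43358933): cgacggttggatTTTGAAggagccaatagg
CENPA (chr2:26786026-26786055): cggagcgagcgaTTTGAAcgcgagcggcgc
NDC80 (chr18:2571542-2571571, reverse complement): aagccgTTCGAATTTGAAattctccgccgg
NUF2 (chr1:163321958-163321987): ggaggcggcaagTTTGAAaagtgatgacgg
SPC25 (chr2:168890416-168890445, minus strand): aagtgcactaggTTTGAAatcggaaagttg
CENPW (chr6:126340120-126340149): gttggcggcggaTTCGAAcgttcggactga
SKA3 (chr13:21176538-21176567, minus strand gene, reverse complement): tcccgccactagTTTGAAtctcggcgccgg
MAD2L1 (chr4:120066807-120066836, minus strand): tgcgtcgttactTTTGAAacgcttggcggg

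A stretch of 100 bases of the CDC20 promoter (chr1:43358855-43358954), which ends just before the GENCODE start of the gene and runs from -126 to -27 of the RefSeq start, shows both motifs together, with TTTGAA and 2 copies of CCAAT in capitals.
CDC20: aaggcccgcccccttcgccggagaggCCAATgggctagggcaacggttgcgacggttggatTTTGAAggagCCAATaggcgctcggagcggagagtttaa

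The order of the medians depended on the window. The median log2 change was -0.02 in the 21 promoters with TTTGAA or TTCGAA and -0.06 in the 21 without, but -0.07 in the 19 with the letters in the nearer window and -0.04 in the 23 without. NDC80, NUF2 and SPC25 carry the letters (the SPC24 window held no match) and so does PLK1, although their estimates lay on opposite sides of 0. Members were marked as peaking in mitosis when the member list was drawn up, and this was not measured in these data. The 23 so marked had a median log2 change of 0.01 and the other 26 of -0.07, beside -0.01 over all tested genes.

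Genes around this machinery were read from lists in the same fit. In each of the 6 lists 0 genes passed the test (limma), beside 0.212% of all genes tested. An unadjusted p under 0.05, which 5.08% of all tested genes reached as higher and 7.03% as lower, was reached by 2 higher and 2 lower of 17 APC/C genes, 2 higher and 2 lower of 26 G2/M genes, 2 lower of 8 condensin genes, 1 lower of 10 cohesin genes and 0 of the 3 BUB genes. The list of CENP-A loading and other centromere proteins held 8 genes, of which CENPJ is, despite its symbol, a centrosome protein. Their median was -0.12, and 2 had an unadjusted p under 0.05, both lower. ITGB3BP, the CENP-R subunit of the CCAN, was the one with the smallest p, at 27.1, 25.3 and 24.2 FPKM in controls and 19.3, 23.4 and 16.7 FPKM in ZNF207 libraries (log2 change -0.36, adjusted p = 0.23). The 17 APC/C subunits and ubiquitin enzymes had a median of -0.02, with FBXO5, an APC/C inhibitor, at 20.9, 20.7 and 22.2 FPKM in controls and 18.1, 18.0 and 18.0 FPKM in ZNF207 libraries (adjusted p = 0.207).

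Chromosome structure genes lay near or below 0. The 8 condensin genes, which compact chromosomes, all had estimates below 0, with a median of -0.10, where 52.4% of all tested genes were below 0. The estimate of SMC4, at -0.006, was the nearest to 0. Signs of the condensin genes under other scalings are not given here. SMC2 was at 25.7 ± 0.771 FPKM in controls and 22.5 ± 1.32 FPKM in ZNF207 libraries (SD, n = 3 each; limma adjusted p = 0.306). The 10 cohesin genes had a median of 0.01, with CDCA5, or sororin, at 45.3 ± 3.41 and 39.3 ± 1.38 FPKM (adjusted p = 0.289). The 26 G2/M genes had a median of 0.01. MYBL2, a transcription factor of late cell cycle genes, was at 57.6, 68.5 and 69.4 FPKM in controls and 53.9, 53.5 and 51.7 FPKM in ZNF207 libraries (log2 change -0.29, adjusted p = 0.158). Without control replicate 1 its adjusted p was 0.0486, the lowest of a range up to 0.452 over the alternatives. CCNB1, the mitotic cyclin, had a log2 change of 0.14 (adjusted p = 0.369), TOP2A of 0.00 and the proliferation marker MKI67 of -0.03.

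Gene coordinates are from GENCODE v29 on GRCh38. CENPU lies on chromosome 4 (184694618 to 184734133), CENPW on chromosome 6 (126340174 to 126348875) and NUF2 on chromosome 1 (163266576 to 163355764). NDC80 lies on chromosome 18 (2571511 to 2616635), SPC24 on chromosome 19 (11131520 to 11155808) and SPC25 on chromosome 2 (168834132 to 168913371). The 4 genes of the NDC80 complex thus lie on 4 chromosomes. DSN1 lies on chromosome 20 (36751791 to 36773818), AURKB on chromosome 17 (8204733 to 8210600) and MAD1L1 on chromosome 7 (1815793 to 2233243). SGO2 is on chromosome 2 (200510008 to 200583782), CDC20 on chromosome 1 (43358955 to 43363203) and PLK1 on chromosome 16 (23677656 to 23690367). Of 49 members, 26 share their listed locus with another row of the deposited values. For 9 members the table also lists copies, readthrough or antisense rows, 14 in all, of which 3 reach an FPKM of 1 (PMF1-BGLAP, SKA2P1 and CDC20P1), so the values of PMF1, SKA2 and CDC20 are uncertain to the extent that reads were split with these rows, which was not tested.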

How the data were processed

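RNA from 6 libraries (3 control, 3 ZNF207) was analysed. The deposited values are FPKM, made by the authors per library without pooling. The submitters' processing notes name hg38 as the build and, as tools, DESeq2 1.4.5, Bowtie2 and RSEM 1.3.1. Their roles, the annotation and the strand setting were not given in the sources used here. Columns were matched to samples by name alone (NC as control, 207 as ZNF207, last digit as replicate). Read depth is unknown, so no count test or counting interval is given. A two-sided limma fit (limma 3.58.1, R 4.3.3) compared the groups on log2(FPKM + 1), with a mean-variance trend, over 13185 genes at FPKM no lower than 1 in 3 libraries. Adjusted p-values are Benjamini-Hochberg over all of them at 0.05, and a log2 change on this scale understates that of low genes. The procedure was tested on simulated data, but the outcome is not given here. At most 8 tested values were identical between libraries of a group.

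Values in every library were given for ZNF207, the 2 members with the smallest p in each of 6 functional groups, CENPA, CENPC, NDC80, KNL1, MAD2L1, TTK, AURKB, BIRC5, CDC20, PTTG1, PLK1 and the members with the highest and lowest level; outside the members, BUB1, BUB1B, BUB3, MKI67, CCNB1, TOP2A and the gene with the smallest p of each pathway list were named. Values of other members, and of AURKA, TPX2 and PKMYT1, were named after they were seen. The rule for members reads symbols alone, but the members and lists were chosen with earlier results of these data known. Alternatives changed the pseudocount, the filter, the scaling, the variance moderation or the weights of libraries, added a replicate block, or left out 1 library.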

Additional observations from a re-analysis of the deposited data

How the results depend on the processing

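Under each of 16 alternatives 0 members passed the adjusted test (limma); the filter at an FPKM of 5 kept 48 of them. The adjusted p of CENPU ranged from 0.0731 with the replicate block to 0.368 without control replicate 2. Over all genes the block gave 56 higher and 89 lower calls against 7 and 21, a filter at an FPKM of 5 gave 16 and 48, no filter gave 3 and 1, no trend 2 and 3, TPM 6 and 13, median-of-ratios scaling 6 and 11, quantile normalization 8 and 12, and array weights 11 and 26. Leaving out a library gave 1 to 10 higher and 3 to 26 lower calls. Read depth is unknown, so its limits cannot be stated. The log2 values of the libraries correlated at 0.985 to 0.991 with each other. After each gene's group mean was subtracted, same-numbered control and ZNF207 libraries correlated at 0.14, 0.01 and 0.17. Pairs of different number then correlated at -0.21 to 0.07. On these centred values control replicate 2 correlated best with ZNF207 replicate 1 (0.07). Whether same-numbered libraries share more than a number was not tested.

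Members with separate groups, 8 lower, were 5 under TPM, without SPC24, SPC25 and DSN1. With a library left out, which makes separation easier by construction, 4 to 7 members were higher and 9 to 14 lower. The shares over all tested genes are not given for TPM or for these fits, so these counts cannot be set beside them. The median of the members ranged from -0.06 to -0.02. Leaving out 1 library also moved log2 changes by over 1.5 times for CENPT (-0.10 without ZNF207 replicate 3), CENPM (-0.32 and -0.12 without control replicates 1 and 2), CENPH (-0.08 and -0.22 without control replicates 1 and 3), CENPK (-0.22, -0.07 and -0.07 without ZNF207 replicates 1, 2 and 3), CENPA (0.08 without control replicate 1, 0.18 and 0.07 without ZNF207 replicates 1 and 3), DSN1 and MAD2L1 (-0.09 and -0.07 without control replicate 3; MAD2L1 -0.16 without ZNF207 replicate 2) and ZWINT (-0.06 without control replicate 2).

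Signs turned for estimates near 0, and the cause was not tested. Under TPM the log2 change was 0.00888 for CENPC, 0.00689 for NSL1, 0.00295 for ZWILCH and 0.0155 for SGO1. Median-of-ratios scaling gave 0.000868 for CENPC and 0.00706 for SGO1. Quantile normalization gave 0.00305 for CENPC, -0.00334 for TOP2A, 0.00531 for NSL1 and 0.000497 for SGO1. Array weights gave 0.0188 for NSL1, -0.0037 for CENPF and -0.0048 for KNTC1.

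With a library left out, log2 changes ranged from -0.0502 to 0.0611 for TTK, -0.00724 to 0.105 for BIRC5, -0.0802 to 0.0163 for MKI67, -0.0496 to 0.105 for CENPB, -0.0463 to 0.0277 for ZWILCH, -0.0699 to 0.0626 for FZR1, -0.0302 to 0.342 for KNL1, -0.00547 to 0.042 for BUB1 and -0.0148 to 0.0535 for BUB3. They ranged from -0.028 to 0.0223 for TOP2A, -0.141 to 0.0165 for PMF1, -0.0278 to 0.082 for CENPE, -0.0402 to 0.0734 for ZW10, -0.0587 to 0.0527 for CENPC, -0.0923 to 0.0605 for NSL1, -0.305 to 0.222 for KNTC1, -0.0234 to 0.0279 for SGO1, -0.185 to 0.0106 for CENPQ, -0.0532 to 0.11 for CENPF and -0.201 to 0.0293 for ESPL1.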

Other observations

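Among the 26 G2/M genes, 3 had ZNF207 libraries wholly above the controls and 2 wholly below (7.61% and 10.4% of all tested genes), and none passed the adjusted test (limma). AURKA, the spindle pole kinase, was at 75.1, 69.0 and 71.6 FPKM in controls and 81.3, 80.5 and 81.2 FPKM in ZNF207 libraries (log2 change 0.17, adjusted p = 0.236). Its activator TPX2 was at 51.6 ± 1.85 and 54.5 ± 0.579 FPKM (SD, n = 3 each; limma adjusted p = 0.602). PKMYT1, which inhibits CDK1, was at 65.4, 74.0 and 74.4 FPKM in controls and 63.8, 63.2 and 57.8 FPKM in ZNF207 libraries (log2 change -0.21, adjusted p = 0.269). The other higher gene was CCNB1 and the other lower gene MYBL2. AURKA, TPX2 and PKMYT1 were picked after their values were seen.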
